A study of Mus musculus with 10 samples.

Results

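Type I interferon stimulated genes were followed in nonclassical monocytes, the patrolling monocyte subset, of mice with and without the collagen-binding inhibitory receptor LAIR1. The 44 members are interferon-induced effectors together with the sensors and signal factors of the same pathway. They were chosen by name, with earlier results of these data known. Their names were matched through GENCODE M21 to 44 of the 52636 genes of the deposited count table. All 44 passed the filter on low counts, among 13469 genes that did. The groups were WT (genotype LAIR1+/+) and LAIR1KO (LAIR1-/-), with 5 libraries each, from monocytes sorted out of bone marrow and given no treatment. The labels give 5000 to 10000 cells per sort at 98% purity, and do not give the strain, sex or age of the animals or how the LAIR1 deletion was made. They do not say that each library is a separate animal, and the tests therefore measure library-to-library spread, which may be technical.

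Interferon alpha and beta bind a receptor of the chains IFNAR1 and IFNAR2. The receptor's kinases act on STAT2, which joins IRF9 in the complex ISGF3, and this complex binds the interferon-stimulated response element (ISRE) of target promoters. The targets include RNA-binding proteins, nucleases, GTPases and membrane proteins that block steps of viral growth, and many are also expressed at a low level in leukocytes that see no infection.

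Library totals ran from 12106209 to 15356924 counts. Lair1 stood at 328 to 399.7 CPM (counts scaled by library size with TMM factors) in WT and at 0 to 0.673 CPM in LAIR1KO, so every library matched its genotype label. All 13 nonclassical monocyte markers were measured, with a summed level of 14779 to 18329 CPM in WT and 11689 to 15640 CPM in LAIR1KO, and 0 of the 13 passed edgeR's test (5 at an unadjusted p under 0.05, 2 by DESeq2, 0 by limma voom). All 13 had a log2 fold change (LAIR1KO minus WT) below 0, with a median of -0.26 against 0 for all genes. Of all 13469 tested genes, 2938 had an unadjusted p under 0.05 in either direction, and DESeq2 called 510 lower. Some libraries stood apart. WT replicate 1 had the highest value of all 10 libraries for 29 of the 44 members, and LAIR1KO replicate 3 had the lowest for 17. LAIR1KO replicates 4 and 5 had the highest myeloid progenitor markers, with summed levels of 5495 and 6868 CPM, and WT replicates 1 and 4 the highest H2-Aa, at 2013 and 2648 CPM. The counts of calls were therefore also taken without these libraries.

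In LAIR1KO, 18 of the 44 interferon-stimulated genes were lower and 0 were higher (edgeR quasi-likelihood test, Benjamini-Hochberg adjusted p under 0.05 over all 13469 genes). At an unadjusted p under 0.05, 31 were lower and 0 higher, and the lower count was 24 by DESeq2 and 16 by limma voom, with 0 higher by either. Of all 13469 tested genes, 2938 had an unadjusted p under 0.05 in either direction. Over all genes DESeq2 called 510 lower and 1006 higher, and limma voom 226 and 668. In bulk samples, fewer cells of a type and less RNA per cell cannot be told apart. The 18 edgeR calls make up 40.9% of the members, where 1.68% of all tested genes were lower and 5.11% higher. The list was chosen with earlier results of these data known, so this excess is not independent of them. The log2 fold change (LAIR1KO minus WT) was below 0 for 43 of the 44 members, with Ifitm1 as the exception, and its median was -0.52 against 0 for all genes. For 14 members every LAIR1KO library lay below every WT library, which held for 2.06% of all genes, and for 0 members did every LAIR1KO library lie above, which held for 5.61%. Leaving out WT replicates 1 and 4 together left 3 members lower, Ifit1, Bst2 and Ifi27l2a, with a median of -0.42 (adjusted p = 0.0789 for Irf7 to 0.241 for Xaf1 among the rest of the 18). Without LAIR1KO replicates 4 and 5 together 14 were lower, 9 of them among the 18, with a median of -0.60. The calls lost there were Zbp1, Ifi204, Ifi205, Mx1, Ifitm2, Ifitm3, Isg20, Xaf1 and Cxcl10. With library totals as the scaling 11 were lower, and Zbp1, Ifi204, Mx1, Ifitm2, Trim30a, Xaf1 and Cxcl10 were lost (adjusted p = 0.0534 to 0.104). The count was 9 without WT replicate 1 alone, 9 without LAIR1KO replicate 2 and 11 without WT replicate 2. Ifit1, Bst2 and Ifi27l2a were called in the fit of all libraries and in every alternative fit run.

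**Figure D1:**
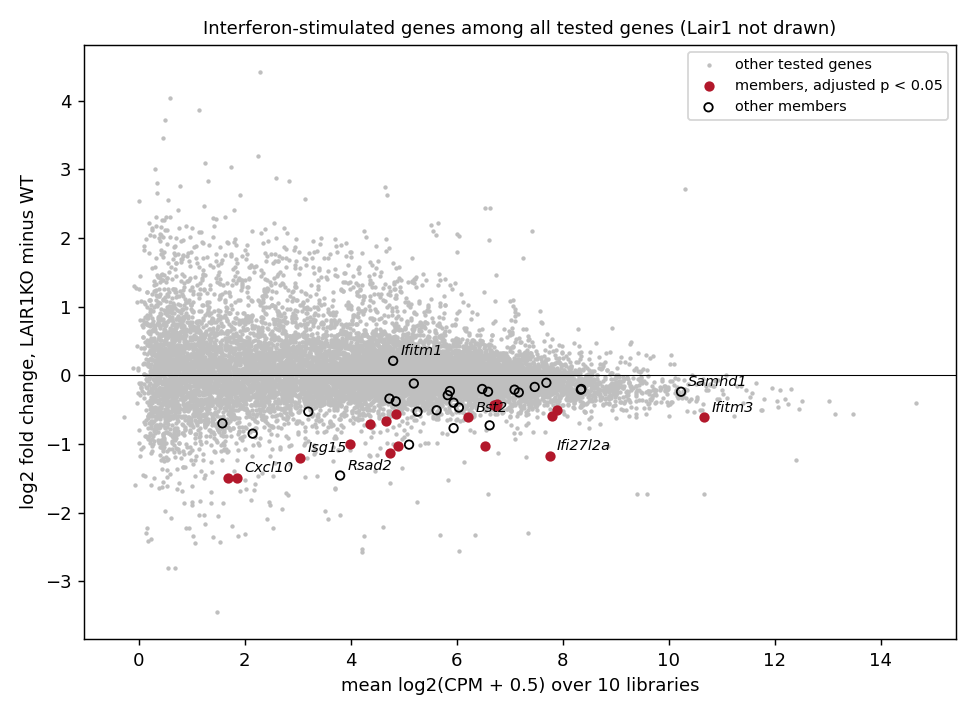
Log2 fold change of LAIR1KO minus WT (vertical axis) against mean log2(CPM + 0.5) over the 10 libraries (horizontal axis), 1 point per tested gene, with Lair1 left out. The 44 interferon-stimulated genes are drawn large, filled in red where adjusted p was under 0.05 (18 genes), and 43 of them lie below the line at 0.

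Markers of some other cell types moved with the genotype as well. Of 9 myeloid progenitor markers 9 were higher in LAIR1KO, with a summed level of 541 to 1425 CPM in WT and 3230 to 6868 CPM in LAIR1KO. Of 12 resident macrophage markers 9 were tested and 7 were lower, with sums of 1560.1 to 2096 CPM in WT against 864 to 1085 CPM. Adgre1 was the largest part (means 912 and 716 CPM) and did not pass (adjusted p = 0.0947). Cd163 was the 1 tested marker with a log2 fold change above 0 (0.77, adjusted p = 0.125). Cd5l, Marco and Timd4 were not tested, with means of at most 1.16 CPM. Of 10 plasmacytoid dendritic cell markers, a cell type that expresses Irf7 and Bst2 highly, 7 were tested and 1 was lower, Siglech. Of the 7, 4 had an unadjusted p under 0.05, as did 2938 of all 13469 tested genes, and 6 a log2 fold change below 0. The sums were 194 to 278 CPM in WT and 152 to 205 CPM in LAIR1KO, with Tcf4 the largest part (means 113 and 94.7 CPM). The mean of Siglech went from 17.8 to 6.45 CPM (adjusted p = 0.032). That of Ly6d went from 20.8 to 9.79 CPM (0.102) and that of Spib from 4.49 to 1.23 CPM (0.0739). Runx2 did not fall (49.1 and 54.3 CPM). Every marker of these 3 lists had a count in at least 1 library. Of 7 erythroid markers 4 were lower, with sums of 118 to 1353 CPM in WT and 63.5 to 159 CPM in LAIR1KO. Classical monocyte markers had 2 of 6 tested higher, and conventional dendritic cell markers 1 of 6 lower and 1 higher. Of 10 neutrophil and 6 tested B cell markers 0 passed. Of 6 T and NK cell markers only Nkg7 was tested, and it was higher (means 11.1 CPM in WT and 28.2 CPM in LAIR1KO). The other 5 did not pass the filter on low counts, and the highest of them, Cd3d, had means of 0.563 and 0.249 CPM. In WT, neutrophil and classical monocyte sums were highest in replicate 1 (2353 and 1159 CPM) and lowest in replicate 5 (886 and 674 CPM). The part of these cells in the fall of the interferon-stimulated genes was not tested.

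Promoters bear on this list because ISGF3 acts through the ISRE. RefSeq promoter windows on GRCm38.p6, from 250 bases before to 50 after each transcription start, were given for 34 of the 44 members. The 10 without a window include the lower members Mx1, Zbp1, Ifi27l2a, Usp18, Ifi204 and Rtp4. The ISRE core was searched on both strands as GAAA, any 2 bases and GAAA again. It occurred for 17 of the 34 members and for 3.99% of the 27025 genes in the same table. Among members lower in LAIR1KO 9 of 12 held it (75.0%), and among those that did not pass 8 of 22 (36.4%). With the 250 bases before the start alone the shares were 66.7% and 22.7%, against 3.46% of all genes. The STAT element TTCNNNGAA, which reads alike on both strands, occurred for 3 of the 12 lower members, 9 of the 22 others and 9.55% of all genes. These shares were not tested, and a match describes letters in a window, not a bound site. The members were listed as interferon-induced genes and factors of the pathway, so their excess over all genes cannot be separated from that choice. Receptor chains are among the members that did not pass.

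ISRE matches before the start are shown for 5 lower members and, for contrast, for 3 members that did not pass. The fold changes of these 3 were also below 0. Each stretch is written 5′ to 3′ on the strand of the gene, with the bases of the matches in capitals.
Isg15: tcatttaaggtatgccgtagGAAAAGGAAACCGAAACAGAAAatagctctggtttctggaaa
Ifit1: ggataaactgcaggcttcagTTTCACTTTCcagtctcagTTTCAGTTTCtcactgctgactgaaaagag
Ifit3: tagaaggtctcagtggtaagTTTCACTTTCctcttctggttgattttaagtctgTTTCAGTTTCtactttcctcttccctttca
Bst2: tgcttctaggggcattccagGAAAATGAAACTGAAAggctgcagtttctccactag
Cxcl10: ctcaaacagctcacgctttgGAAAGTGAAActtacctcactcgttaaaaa
Oas1a: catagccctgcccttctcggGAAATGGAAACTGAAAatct
Oas3: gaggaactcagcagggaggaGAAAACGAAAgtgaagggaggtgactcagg
Rsad2: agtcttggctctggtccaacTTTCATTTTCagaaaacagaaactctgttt
On GRCm38.p6 these are, in order, Isg15 chr4:156200855-156200916 (minus strand), Ifit1 chr19:34640765-34640833 (plus strand), Ifit3 chr19:34583353-34583436 (plus strand), Bst2 chr8:71537567-71537622 (minus strand), Cxcl10 chr5:92349073-92349122 (minus strand), Oas1a chr5:120907526-120907565 (minus strand), Oas3 chr5:120777705-120777754 (minus strand) and Rsad2 chr12:26456543-26456592 (minus strand). Isg15 held 3 overlapping matches that began 78 bases before the start, and Bst2 held 2, of which 1 overlapped a TTCNNNGAA match. Ifit1 and Ifit3 each held 2 separate matches on the other strand. Oas1a held 2 overlapping matches within 20 bases of the start. Both Isg15 and Oas1a thus carried overlapping ISRE cores. Isg15 passed the test (log2 fold change -1.2, adjusted p = 0.0155), while Oas1a fell just short of it (-0.51, adjusted p = 0.0565). Of the lower members with a window, Irf7, Isg20 and Xaf1 showed no match.

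Members covered a wide range of levels. Per length, the WT mean ran from 0.667 RPKM (here CPM per kilobase of exon) for Ifi44 to 3010 RPKM for Ifitm3, with a median of 17.1 RPKM. Ifi27l2a (710 RPKM), Ifitm2 (437 RPKM) and the nucleotide hydrolase gene Samhd1 (143 RPKM) came next. Members also differed in how far they varied among libraries of one genotype. The coefficient of variation of CPM in WT ran from 6.29% for Ifi35 to 68.9% for Cxcl10, and in LAIR1KO from 4.68% for Ifnar1 to 84.9% for Ifi44.

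The receptor genes did not pass the test by edgeR, DESeq2 or limma voom (1 of 2 at an unadjusted p under 0.05). Ifnar1 stood at 198, 205, 236, 187 and 246 CPM in WT and 189, 191, 212, 202 and 199 in LAIR1KO (log2 fold change -0.11 ± 0.09 (SE), adjusted p = 0.533). The groups overlapped, and the LAIR1KO libraries lay within the WT range. Ifnar2 stood at 339.7, 304, 362, 375 and 357 CPM in WT and 309, 307, 346, 277 and 267 in LAIR1KO (log2 fold change -0.21 ± 0.09 (SE), adjusted p = 0.223). The values of LAIR1KO replicates 4 and 5 were below those of all WT libraries, and the other LAIR1KO libraries lay inside the WT range.

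Of the signal factors, Irf7 fell, and Stat2, Irf9 and Irf1 did not pass. Irf7, the factor that drives transcription of the interferon alpha genes and is itself induced by interferon, stood at 321, 275, 231, 292 and 252 CPM in WT and 208, 173, 147, 189 and 194 in LAIR1KO. Every LAIR1KO library was below every WT library. The mean went from 274 ± 34.9 CPM to 182 ± 23.2 CPM (SD, n = 5; log2 fold change -0.59 ± 0.12 (SE), adjusted p = 0.00853). Stat2, a subunit of ISGF3, stood at 177, 152, 146, 162 and 149 CPM in WT and 124, 118, 121, 166 and 132 in LAIR1KO (log2 fold change -0.25 ± 0.11 (SE), adjusted p = 0.203), with only LAIR1KO replicate 4 inside the WT range. Irf9, the DNA-binding subunit of ISGF3, stood at 198, 209, 169.8, 188 and 178 CPM in WT and 164, 162, 187, 158 and 166 in LAIR1KO (log2 fold change -0.17 ± 0.09 (SE), adjusted p = 0.275), with LAIR1KO replicate 3 inside that range. Irf1, which responds mainly to interferon gamma, had a log2 fold change of -0.20 ± 0.17 (adjusted p = 0.537) and its highest value, 465 CPM, in LAIR1KO replicate 3. Irf7 did not pass without WT replicates 1 and 4 (-0.47, adjusted p = 0.0789), and its exons share 1.2% of their length with Phrf1 on the opposite strand (mean counts 3085 and 1347).

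Among the nucleic acid sensors 1 of 4 fell. Zbp1, which binds Z-form nucleic acid and can start necroptosis, stood at 133, 117, 128, 143 and 105 CPM in WT and 100.1, 80.1, 105, 84.1 and 88.5 in LAIR1KO. WT replicate 5 and LAIR1KO replicate 3 nearly met, and the groups did not overlap. The mean went from 125 ± 14.8 CPM to 91.5 ± 10.5 CPM (SD, n = 5; log2 fold change -0.45 ± 0.11 (SE), adjusted p = 0.027). The call was lost without WT replicate 1, 3 or 4 or LAIR1KO replicate 2, 4 or 5 (adjusted p = 0.0591 to 0.0723). The RNA sensors Ddx58, which encodes RIG-I (-0.47 ± 0.17, adjusted p = 0.125), Ifih1, which encodes MDA5 (-0.29 ± 0.14, 0.268), and Dhx58, which encodes LGP2 (-0.40 ± 0.13, 0.0759), did not pass. Dhx58 passed without WT replicate 5 (adjusted p = 0.0404).

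In the PYHIN family of nuclear and cytosolic DNA-binding proteins 2 of 3 members fell. Ifi204 stood at 134, 117, 115, 124 and 114 CPM in WT and 100.5, 78.96, 91.1, 96.1 and 83.2 in LAIR1KO (log2 fold change -0.43 ± 0.09 (SE), adjusted p = 0.0171), with no overlap between groups. Ifi205 was far less abundant, at 7.36, 3.79, 3.79, 4.28 and 3.95 CPM in WT and 2.56, 1.14, 1.19, 1.56 and 1.74 in LAIR1KO (log2 fold change -1.49 ± 0.31 (SE), adjusted p = 0.0118). Here too the groups did not overlap, and WT replicate 1 stood well above the other WT libraries. Ifi203 had a log2 fold change of -0.12 ± 0.17 (adjusted p = 0.734). Part of these transcripts is shared with other family members, 20.02% of the 50-base stretches of Ifi204 and 18.6% of those of Ifi205, so reads could be assigned among them. Neither call held without WT replicates 1 and 4 (adjusted p = 0.126 and 0.0891) or without LAIR1KO replicates 4 and 5 (0.0632 and 0.0703).

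The IFIT genes, some of whose products bind viral RNA and block its translation, were all lower in the mean, and 2 of 3 passed. Ifit1 stood at 30.2, 20.6, 20.6, 20.9 and 17.9 CPM in WT and 11.8, 14.1, 9.61, 10.1 and 9.42 in LAIR1KO. All LAIR1KO libraries were below all WT libraries, and the mean went from 22.04 ± 4.72 CPM to 11.01 ± 1.97 CPM (SD, n = 5; log2 fold change -1.0 ± 0.18 (SE), adjusted p = 0.00491). Ifit3 stood at 60.2, 38.4, 38.2, 40.2 and 26.3 CPM in WT and 18.1, 15.3, 9.81, 24.1 and 25.8 in LAIR1KO. WT replicate 1 was the highest and LAIR1KO replicate 3 the lowest, and the groups stayed apart by less than 1 CPM (log2 fold change -1.13 ± 0.26 (SE), adjusted p = 0.0206). The call of Ifit3 was lost without WT replicate 1 or LAIR1KO replicate 2 (adjusted p = 0.0515 to 0.054), and 51.2% of its 50-base stretches also occur in its neighbour copy Ifit3b. Ifit2 stood at 86.6, 47.2, 45.5, 46.2 and 37.7 CPM in WT and 17.3, 15, 12.1, 47.5 and 38.7 in LAIR1KO. LAIR1KO replicates 4 and 5 reached WT values while replicates 1 to 3 lay below all of them, and the gene did not pass (log2 fold change -1.01 ± 0.36 (SE), adjusted p = 0.12). It passed without LAIR1KO replicate 4 (-1.34, adjusted p = 0.0486) and without replicates 4 and 5 together (-1.83, adjusted p = 0.00779).

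The ubiquitin-like modifier and its protease fell together. Isg15, the modifier that is joined to viral and host proteins, stood at 20.2, 11.9, 9.15, 11.6 and 7.9 CPM in WT and 5.75, 4.78, 3.91, 4.83 and 7.17 in LAIR1KO (log2 fold change -1.20 ± 0.26 (SE), adjusted p = 0.0155). The groups did not overlap, with WT replicate 5 and LAIR1KO replicate 5 nearest to each other. Usp18, which removes ISG15 and damps signalling at IFNAR2, stood at 50.02, 45.03, 33.2, 48.3 and 38.7 CPM in WT and 17.96, 18.2, 12.99, 25.7 and 30.4 in LAIR1KO (log2 fold change -1.03 ± 0.21 (SE), adjusted p = 0.0105). Every LAIR1KO library was again below every WT library. Neither passed without WT replicates 1 and 4 (adjusted p = 0.0924 for Isg15 and 0.0891 for Usp18). Herc6, the ISG15 ligase of the mouse, had a log2 fold change of -0.38 ± 0.16 (adjusted p = 0.189).

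**Figure D2:**
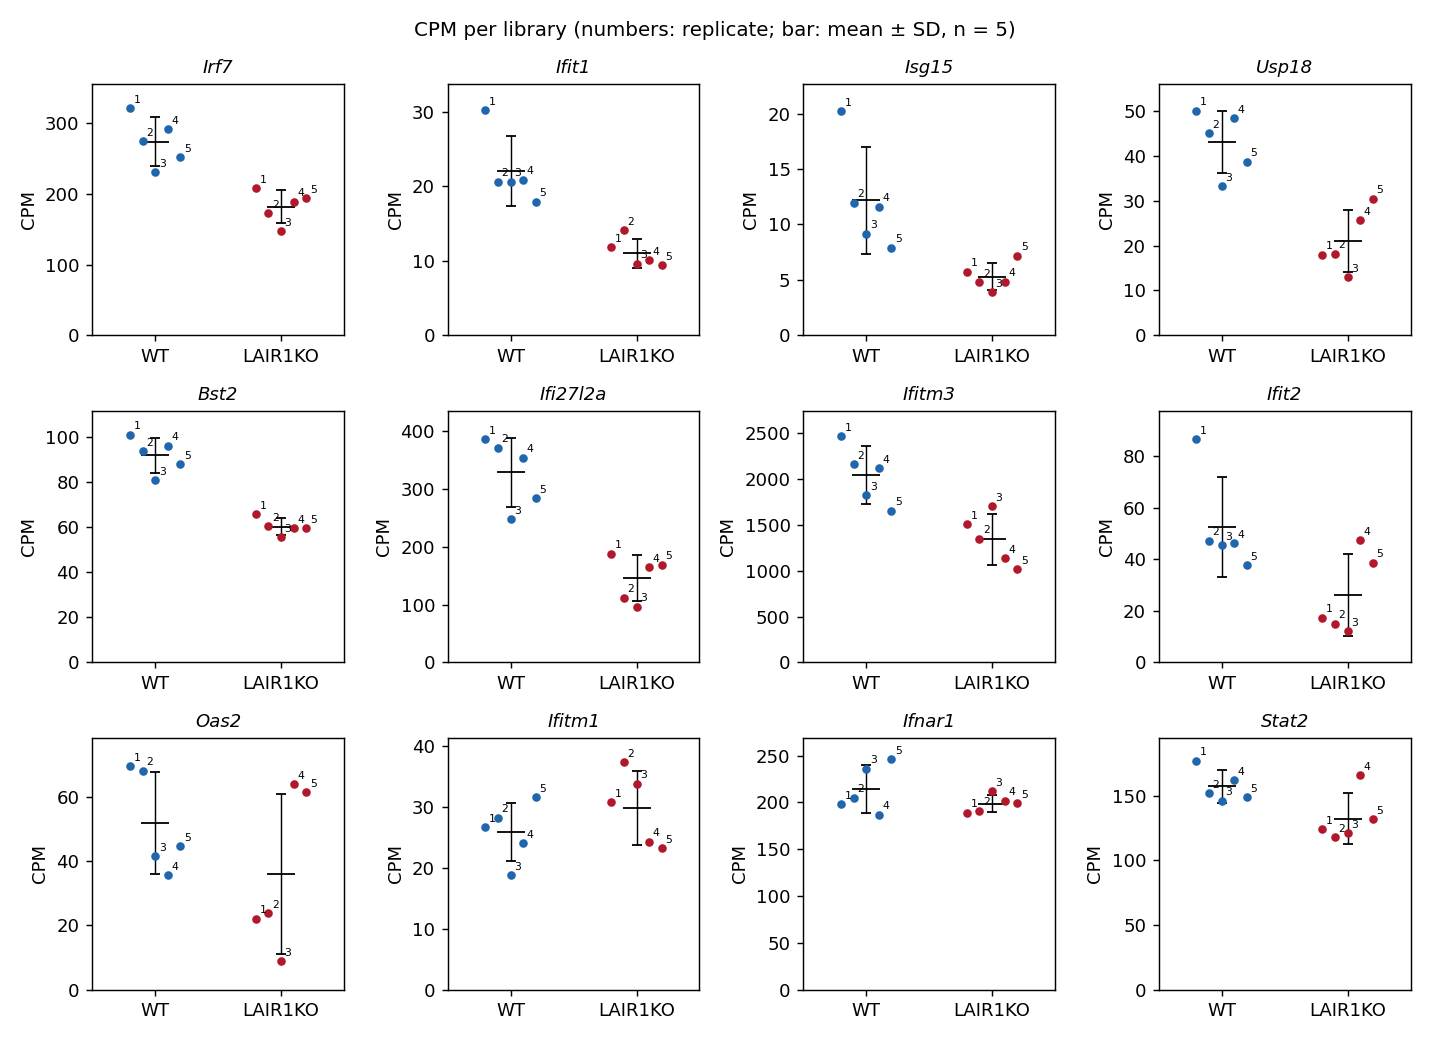
CPM of 12 members in each library (vertical axes, from 0), with WT in blue and LAIR1KO in red, replicate numbers beside the points and bars for the mean ± SD of 5 libraries. In Irf7, Ifit1, Isg15, Usp18, Bst2 and Ifi27l2a all LAIR1KO libraries lie below all WT libraries, while in Ifit2 and Oas2 LAIR1KO replicates 4 and 5 lie at WT values.

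Active enzymes of the OAS family make short oligoadenylates that switch on RNase L. Of the family's 5 members 0 passed edgeR's test, although all 5 fold changes were below 0 (median -0.53). At an unadjusted p under 0.05 there were 3, DESeq2 called 3 and limma voom 1. LAIR1KO libraries were spread widely here. Oas2 stood at 69.6, 68.3, 41.6, 35.6 and 44.7 CPM in WT and 22.1, 23.8, 8.95, 64.02 and 61.5 in LAIR1KO (log2 fold change -0.53 ± 0.42 (SE), adjusted p = 0.515). LAIR1KO replicates 1 to 3 were below all WT libraries and replicates 4 and 5 were within the WT range. Oas3 stood at 105, 103, 78.98, 72.5 and 59.9 CPM in WT and 41.9, 39.01, 22.5, 63.01 and 79.3 in LAIR1KO (log2 fold change -0.77 ± 0.28 (SE), adjusted p = 0.122), again with replicates 4 and 5 the highest of LAIR1KO. Oasl1, which holds back Irf7 translation in the mouse, ran from 1.19 to 14.1 CPM in LAIR1KO and from 6.89 to 17.8 CPM in WT (adjusted p = 0.558). Oasl2 (-0.73 ± 0.22, adjusted p = 0.0656) and Oas1a (-0.51 ± 0.15, 0.0565) came nearest to the threshold. Without LAIR1KO replicates 4 and 5, Oas2 (-1.50, adjusted p = 0.0374), Oas3 (-1.28, 0.0186), Oasl2 (-1.08, 0.0191) and Oas1a (-0.68, 0.0461) passed. Without replicate 5 alone, Oas3 (adjusted p = 0.0421) and Oasl2 (0.0380) passed, and Oas1a passed without WT replicate 5 (0.0298). Of the 50-base stretches of Oas1a, 57.6% also occur in Oas1g, so its reads could be split.

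Of the MX GTPases, which trap viral ribonucleoproteins, Mx1 passed and Mx2 did not. Mx1 stood at 39.3, 29.96, 20.2, 33.8 and 34.9 CPM in WT and 19.9, 16.1, 18.3, 26.1 and 19.6 in LAIR1KO (log2 fold change -0.66 ± 0.18 (SE), adjusted p = 0.0469), and WT replicate 3 lay among the LAIR1KO values. The call was lost without WT replicate 1, 2, 4 or 5 or LAIR1KO replicate 1, 2, 3 or 5 (adjusted p = 0.0704 to 0.108). With all libraries it was also lost with library totals, the replicate block and limma voom (adjusted p = 0.0587 to 0.0959). Mx2 was low, with a mean of 5.52 ± 1.31 in WT against 3.05 ± 1.45 CPM in LAIR1KO (SD, n = 5; log2 fold change -0.85 ± 0.33 (SE), adjusted p = 0.145).

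The IFITM proteins sit in membranes and block the entry of enveloped viruses. Ifitm3, the member with the highest level per length, stood at 2462, 2159, 1816, 2110.3 and 1649 CPM in WT and 1501, 1345, 1698, 1134 and 1016 in LAIR1KO (log2 fold change -0.61 ± 0.15 (SE), adjusted p = 0.0273). LAIR1KO replicates 4 and 5 were the lowest libraries, and replicate 3 lay just above WT replicate 5. Ifitm2 stood at 333, 302, 261, 249.8 and 286 CPM in WT and 245, 191, 242, 171 and 158 in LAIR1KO (log2 fold change -0.51 ± 0.13 (SE), adjusted p = 0.0394), without overlap. Ifitm3 was lost without WT replicate 1, 2 or 4 or LAIR1KO replicate 2, 4 or 5 (adjusted p = 0.0538 to 0.0736), and Ifitm2 without WT replicate 1, 2, 3 or 5 or LAIR1KO replicate 2, 4 or 5 (adjusted p = 0.0604 to 0.101). Ifitm1 was the only member with a fold change above 0. It stood at 26.7, 28.3, 18.8, 24.1 and 31.7 CPM in WT and 30.8, 37.4, 33.9, 24.3 and 23.3 in LAIR1KO and did not pass (log2 fold change 0.21 ± 0.17 (SE), adjusted p = 0.526), and the highest 2 libraries were LAIR1KO replicates 2 and 3. For Ifitm2, 48.5% of the 50-base stretches occur in other annotated genes.

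Among the enzymes that act on nucleic acids, nucleotides or translation 1 of 6 fell. Isg20, an exonuclease for single-stranded RNA, stood at 25.1, 30.2, 22.4, 32.4 and 19.4 CPM in WT and 18.02, 15.2, 18.6, 13.5 and 13.8 in LAIR1KO (log2 fold change -0.71 ± 0.17 (SE), adjusted p = 0.0229), with every LAIR1KO library below every WT library. The call was lost without WT replicate 2 or 4 or LAIR1KO replicate 2, 4 or 5 (adjusted p = 0.0543 to 0.064). Rsad2, which encodes viperin, stood at 31.6, 38.6, 19.5, 26.1 and 9.99 CPM in WT and 9.33, 7.67, 2.19, 11.4 and 15.3 in LAIR1KO (log2 fold change -1.46 ± 0.43 (SE), adjusted p = 0.0602). WT replicate 5 lay inside the LAIR1KO range, and the gene passed without WT replicate 5 or LAIR1KO replicate 3 or 5 (adjusted p = 0.0289 to 0.0468). The RNA-activated kinase gene Eif2ak2 (-0.34), the RNA editing gene Adar (-0.21), Samhd1 (-0.24) and the nucleotide kinase gene Cmpk2 (-0.23) did not pass (adjusted p = 0.194 to 0.383).

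Bst2 had the smallest p of all members. It encodes tetherin, which holds budding virus at the cell surface, and stood at 101, 93.7, 80.9, 96.1 and 87.9 CPM in WT and 65.8, 60.3, 55.4, 59.5 and 59.5 in LAIR1KO. Both groups were tight and far apart, and the mean went from 92.01 ± 7.88 CPM to 60.1 ± 3.7 CPM (SD, n = 5; log2 fold change -0.61 ± 0.09 (SE), adjusted p = 0.00201). Trim30a, of the TRIM ubiquitin ligase family, stood at 139, 125, 122, 134 and 104 CPM in WT and 90.2, 89.6, 93.4, 94.2 and 101 in LAIR1KO (log2 fold change -0.42 ± 0.09 (SE), adjusted p = 0.0186), with the groups apart. It was lost without WT replicate 1 (adjusted p = 0.0513). The call also ended with library totals as the scaling (-0.28, adjusted p = 0.08) and when WT replicates 1 and 4 were both left out (-0.33, adjusted p = 0.144).

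Of the 7 other induced genes 4 fell. Ifi27l2a, a small hydrophobic protein gene, stood at 386, 371, 248, 354 and 284 CPM in WT and 188, 112, 96.5, 165 and 169 in LAIR1KO. No LAIR1KO library reached the lowest WT library, and the mean went from 329 ± 59.8 CPM to 146 ± 39.5 CPM (SD, n = 5; log2 fold change -1.17 ± 0.19 (SE), adjusted p = 0.00282). Rtp4, a chaperone of receptor transport that also restricts viral RNA, stood at 173, 160.2, 111, 135 and 102 CPM in WT and 73.1, 61.2, 30.8, 84.1 and 85.4 in LAIR1KO (log2 fold change -1.03 ± 0.24 (SE), adjusted p = 0.0217), without overlap, and was lost without WT replicate 1 or 2 or LAIR1KO replicate 2 (adjusted p = 0.0543 to 0.0557). Xaf1, an antagonist of the apoptosis inhibitor XIAP, stood at 42.2, 39.98, 29.2, 36.1 and 26.3 CPM in WT and 27.6, 18.8, 24.1, 24.2 and 23.3 in LAIR1KO (log2 fold change -0.56 ± 0.16 (SE), adjusted p = 0.0499). LAIR1KO replicate 1 lay above WT replicate 5. The chemokine gene Cxcl10, whose product attracts CXCR3-bearing lymphocytes, stood at 12.2, 5.81, 4.69, 2.83 and 2.71 CPM in WT and 1.41, 2.89, 1.46, 1.87 and 2.39 in LAIR1KO (log2 fold change -1.49 ± 0.42 (SE), adjusted p = 0.0499). LAIR1KO replicate 2 lay above WT replicates 4 and 5, and WT replicate 1 was the highest library. Exons of Cxcl10 share 5.9% of their length with Art3 on the opposite strand (mean counts 49.8 and 20.3), and the strand setting of the counting is not given. Xaf1 lost its call without WT replicate 1, 2, 3 or 4 or LAIR1KO replicate 2, 3, 4 or 5 (adjusted p = 0.0559 to 0.12), and Cxcl10 without WT replicate 1, 2 or 3 or LAIR1KO replicate 1, 2, 3, 4 or 5 (adjusted p = 0.0603 to 0.122). With all libraries, both were also lost with library totals, the replicate block, robust dispersion and limma voom without or with quality weights (adjusted p = 0.0507 to 0.139). Xaf1 was lost with no filter as well (0.0578). Ifi35 (-0.20 ± 0.09), Ifi44 (-0.70 ± 0.67) and Parp14, an ADP-ribosyl transferase (-0.24 ± 0.26), did not pass (adjusted p = 0.22 to 0.649).

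**Figure D3:**
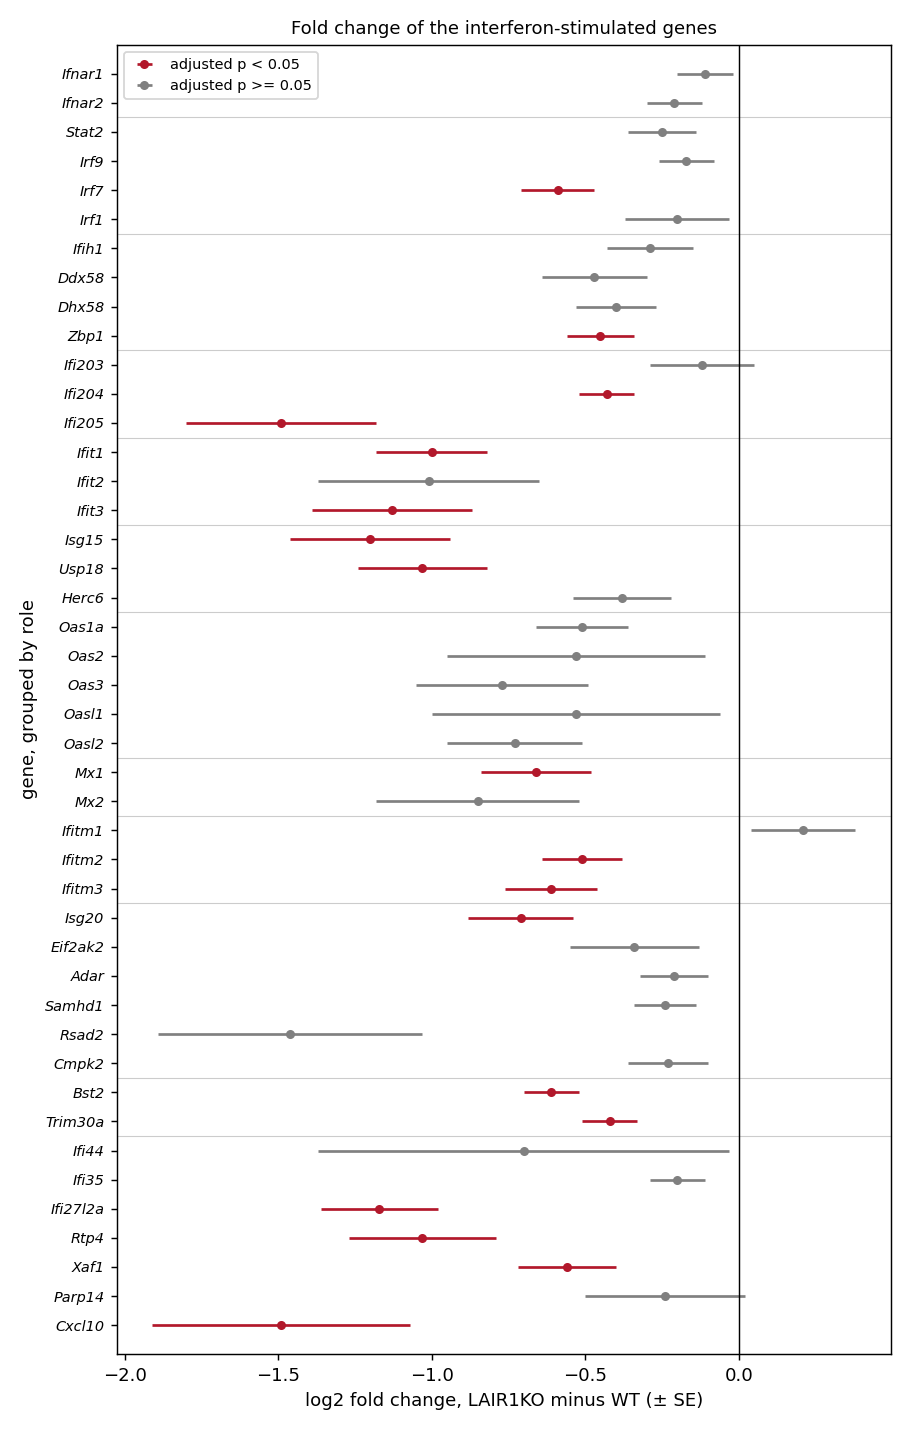
Log2 fold change of LAIR1KO minus WT with its SE (horizontal axis) for the 44 members in the order of their roles (vertical axis), in red where adjusted p was under 0.05. The points run from -1.49 for Ifi205 and Cxcl10 to 0.21 for Ifitm1, and the widest errors belong to Ifi44, Oasl1, Rsad2, Oas2 and Cxcl10.

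Libraries of one genotype did not order the members alike. Within LAIR1KO, replicate 4 was the highest library for 11 members, replicate 5 for 11, replicate 1 for 9, replicate 3 for 9 and replicate 2 for 4, and replicate 3 was the lowest for 17. Oas2, Oas3, Ifit2, Parp14 and Stat2 were higher in LAIR1KO replicates 4 and 5 than in replicates 1 to 3, whereas Ifitm3, Ifitm2, Isg20 and Ifi35 were lowest there. Within WT, replicate 1 was the highest library for 30 members and replicate 5 the lowest for 24. The mean log2(CPM + 0.5) over the 44 members was 6.36 in WT replicate 1, 5.82 in WT replicate 5, 5.14 in LAIR1KO replicate 3 and 5.66 in LAIR1KO replicate 4, the highest of that genotype.

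**Figure D4:**
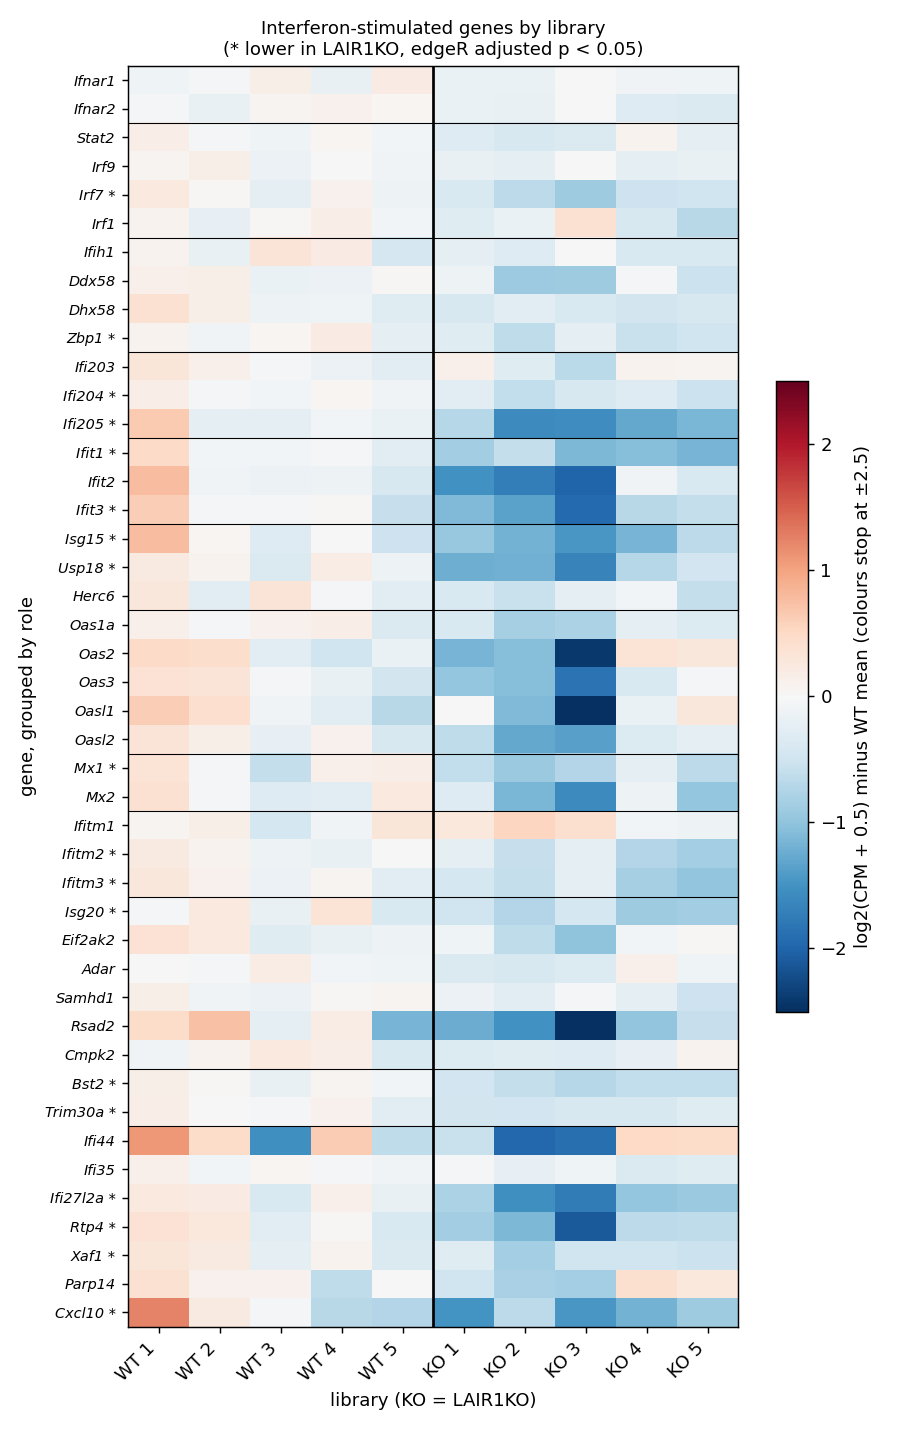
Log2(CPM + 0.5) of each member minus its WT mean (colour) in the 5 WT and 5 LAIR1KO libraries (columns), with members in rows, parted by role and starred where called lower. WT replicate 1 is the reddest column, LAIR1KO replicates 2 and 3 are the bluest, and the rows of Oas1a, Oas2, Oas3, Oasl2 and Ifit2 are paler in LAIR1KO replicates 4 and 5 than in replicates 1 to 3.

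The pathway beyond the members was read from further lists. Among 45 other interferon-stimulated genes that were tested, 10 fell and 0 rose (22.2% lower, where 1.68% of all tested genes were lower and 5.11% higher). At an unadjusted p under 0.05, 22 were lower and 2 higher, where 2938 of all 13469 tested genes had such a p. DESeq2 called 16 lower and limma voom 9, with 0 higher by either. The median log2 fold change was -0.31 against 0 for all genes. Lgals3bp, a secreted glycoprotein gene, stood at 259, 242, 210.4, 232 and 191 CPM in WT and 161, 132, 124, 155 and 171 in LAIR1KO (log2 fold change -0.61 ± 0.11 (SE), adjusted p = 0.00692), and Slfn2, of the Schlafen family, at 872, 842, 821, 934 and 936 CPM in WT and 734, 606, 650.1, 617 and 566 in LAIR1KO (log2 fold change -0.47 ± 0.09 (SE), adjusted p = 0.00714). For both, every LAIR1KO library was below every WT library. Phf11b (-0.62 ± 0.13, adjusted p = 0.0126) and Epsti1 (-0.50 ± 0.11, 0.0152) also fell, with the groups apart. None of these 4 passed without WT replicates 1 and 4 (adjusted p = 0.0629 to 0.104). Phf11b and Epsti1 did not pass without LAIR1KO replicates 4 and 5 (0.0835 and 0.0906). Over all pathway lists together 11 of 80 tested genes were lower (13.8%, against 1.68% of all tested genes). The count was 7 without WT replicate 1, 6 without WT replicate 2, 7 without WT replicate 3, 6 without LAIR1KO replicate 2 and 6 without LAIR1KO replicate 4. It was 3 without LAIR1KO replicates 4 and 5 and 0 without WT replicates 1 and 4.

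Signal transduction genes outside the members did not pass, with 0 of 18 called in either direction by edgeR, DESeq2 or limma voom. Of the 18, 6 had an unadjusted p under 0.05, as did 2938 of all 13469 tested genes. The smallest p belonged to Irf5, a factor downstream of Toll-like receptors (923 ± 54 in WT against 721 ± 141 CPM in LAIR1KO, as SD, n = 5; log2 fold change -0.36 ± 0.13 (SE), adjusted p = 0.115), and Ifngr2, a chain of the interferon gamma receptor (log2 fold change -0.30 ± 0.11 (SE), adjusted p = 0.115). Exons of Irf5 share 14.1% of their length with Tnpo3 on the opposite strand (mean counts 11234.6 and 1913.8), so its level is uncertain. Without LAIR1KO replicate 3 Irf5 (adjusted p = 0.0284) and the repressor gene Irf2 (0.0186) passed, the latter named after its values were seen. Of 17 nucleic acid sensing genes tested 1 fell and 0 rose (5.88% lower, where 1.68% of all tested genes were lower and 5.11% higher). At an unadjusted p under 0.05, 1 was lower and 2 higher, where 2938 of all 13469 tested genes had such a p. DESeq2 called 1 lower and 1 higher, and limma voom 1 lower and 0 higher. The gene that fell was Unc93b1, which carries Toll-like receptors to endosomes, at 1358, 1172, 1249, 1403 and 1325 CPM in WT and 987, 1089, 1168, 1041 and 899 in LAIR1KO (log2 fold change -0.33 ± 0.09 (SE), adjusted p = 0.0499). Its groups did not overlap, and the call was lost without WT replicate 1, 2, 3, 4 or 5 or LAIR1KO replicate 1, 2, 4 or 5 (adjusted p = 0.0576 to 0.113). With all libraries it was also lost with upper-quartile or library-total scaling, no filter, the replicate block and robust dispersion (adjusted p = 0.0509 to 0.13). Rnaseh2b, a subunit gene of RNase H2 named after its values were seen, stood at 19.4, 25.4, 26.3, 24.9 and 19.4 CPM in WT and 26.6, 37.9, 27.9, 31.5 and 37.7 in LAIR1KO, with every LAIR1KO library above every WT library. It did not pass (log2 fold change 0.48 ± 0.15 (SE), adjusted p = 0.0724), while DESeq2 (adjusted p = 0.0312) and edgeR with library totals (0.0272) called it higher.

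Interferon transcripts themselves were hardly detected. Of 21 interferon genes of types I, II and III, 17 had a count of 0 in every library, and 3 counts, the limit that a count of 0 allows, equal 0.195 to 0.248 CPM depending on the library. The others were Ifnb1 with 3 counts in 1 library, Ifna16 with 1 count, Ifnk with 7 and Ifnz with 5 counts over all 10 libraries. A difference between genotypes in interferon transcripts was not detectable at this depth.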

How the data were processed

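Bulk RNA sequencing counts of sorted nonclassical monocytes were compared between 5 WT and 5 LAIR1KO libraries. The data are raw read counts per Ensembl gene, deposited by the authors without normalization. Per the submitters' processing notes, GSNAP and GRCm38.p5 were used for alignment. The sources used here do not give the GSNAP version, the counting tool, its annotation release, the strand setting or the read length. Columns were matched by the identifier in each title. Names and exon lengths came from GENCODE M21, which matched 52489 of 52636 identifiers.

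Genotypes were compared with edgeR 4.0.16 (R 4.3.3): filterByExpr by group (minimum count 10, minimum total 15), TMM scaling, glmQLFit and glmQLFTest with no covariate, and Benjamini-Hochberg adjustment over 13469 genes at 0.05. Adjusted p-values are two-sided and from edgeR unless another tool is named. CPM uses TMM-scaled library sizes. RPKM divides mean CPM by exon length in kilobases. The SE is the log2 fold change divided by the root of F. Shared sequence is the share of 50-base stretches of a gene's GENCODE transcripts found in another gene. Chi-square per degree of freedom between replicate libraries was 11 to 51, so none repeated another. The procedure was tested on simulated counts.

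The members, lists and tests were chosen with earlier results of these data known. Members past the threshold or with groups apart, and Ifnar1, Ifnar2, Stat2 and Irf9, are given with every library's value. From each pathway list up to 4 called genes with the smallest p were named, or 2 where none passed. Alternatives were RLE, upper-quartile and library-total scaling, no filter or 1 CPM in 5 libraries, the replicate number as a block, DESeq2 1.42.0, limma 3.58.1 voom without and with library quality weights, robust dispersion, an adjusted p under 0.1, and libraries left out. The limit for a count of 0 is 3 counts of the library total. It covers counting error only, as reads without molecular identifiers are not independent molecules. The values of 1 signal transduction gene are not reported here.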

Additional observations from a re-analysis of the deposited data

Results flagged for a closer look

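Within a genotype, a library was flagged when its gap to the nearest other exceeded 0.71 of the range of the 5 values (Dixon's limit). Of 104 groups of values checked 5 were flagged, where chance flags about 1 in 20. WT replicate 1 stood high for Ifi205 (7.36 CPM against 3.79 to 4.28 in the other WT libraries), Ifit1 (30.2 against 17.9 to 20.9 CPM) and Ifit2 (86.6 against 37.7 to 47.2 CPM). Among LAIR1KO libraries, replicate 3 stood high for Irf9 (187 against 158 to 166 CPM) and replicate 5 for Cmpk2 (66.5 against 49.2 to 53.97 CPM).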

How the results depend on the processing

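In all fits 41 to 43 of the 44 members had a fold change below 0, the lowest number with library totals, and the members' median stayed between -0.60 and -0.38. No called value changed sign. The count of lower members was 18, and 11 with library totals, under which all genes had a median of 0.13. It was 3 without WT replicates 1 and 4, and 9 to 19 with 1 library left out. Replicate numbers did not pair the libraries: same-numbered deviations correlated at -0.0775 to 0.0466, and 0 of 5 WT libraries correlated best with their own number. With the replicate block the counts were 11 members, 4 other pathway genes and 122 of all genes lower. Of the other pathway genes 11 were lower and 0 higher. This became 7 and 3 with library totals, 17 and 1 with DESeq2, 3 lower without LAIR1KO replicates 4 and 5, 0 lower without WT replicates 1 and 4, 1 higher at an adjusted p under 0.1, and 6 to 13 lower with 1 library left out. Over all genes 226 were lower and 688 higher. Lower and higher genes were 136 and 1243 with library totals, 140 and 236 without LAIR1KO replicates 4 and 5, and 72 and 266 without WT replicates 1 and 4. With 1 library left out they ran from 113 to 381 and from 422 to 789. DESeq2 called 510 lower and an adjusted p under 0.1 gave 445. Higher genes made up 75.3% of calls with TMM and 90.1% with library totals. An ISRE core was found for 17 of 34 members, and for 13 in the 250 bases before the start alone. The causes of these moves were not tested.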
